A study of Mus musculus with 8 samples.

Results

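Processed pseudogenes are the rows of the count table that the annotation labels as reverse-transcribed gene copies, and 2142 of them reached a sum of 80 counts over the 8 libraries. They were taken from 3653 processed pseudogene rows among 26709 rows in all. By position, 1644 members lay outside every protein-coding row of the same chromosome and 498 (23.2%) overlapped at least 1 base of such a row. Of the overlapping members, 209 had the strand of the coding row and 289 the opposite strand. At the edge of the count limit, Gm19062 (80 counts) and Gm16102 (80.1 counts) were just inside it, and Gm7129 (79.96 counts) and Gm11281 (79.9 counts) just outside it.

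RNA came from mammary tumours of EMT6, a mouse mammary carcinoma line labelled as epithelial breast tumour cells of WT genotype, grown in syngeneic Balb/c mice. In the 4 control tumours the treatment label was IgG. In the 4 treated tumours it was Granzyme-B, which the design text gives as GrB-Fc-KS49, a fusion protein directed to the membrane protein EMP2 and carrying the cytotoxic protease granzyme B. Both groups were dosed 3 times over 10 days, and the sources used here give no age. Nothing says whether each tumour came from its own mouse, so a p-value covers only the variation among these tumours, which may be technical. The titles of IgG replicate 1 and GrB replicate 3 end in U, a suffix with no stated meaning.

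Total counts per library ran from 73984473 to 82624028. The treated libraries differed in their mixture of tissue markers. The summed CPM (counts scaled to library size) of 5 skeletal muscle markers was 35.5 to 164 in IgG tumours and 1989, 256, 319 and 33.4 in GrB replicates 1 to 4. The 5 T cell markers summed to 10.2 to 14.1 CPM in IgG tumours and 11 to 52.0 in treated tumours, and 5 macrophage markers to 526 to 759 and 754 to 1647. Fibroblast markers summed to 8634 to 14488 CPM in IgG tumours and 6179, 7613, 16559 and 11604 CPM in treated tumours, lowest in GrB replicate 1. Adipocyte markers were highest in GrB replicate 3 (376 CPM, against 46.3 to 124 in the other libraries), and erythroid markers ran from 138 to 379 and from 109 to 538 CPM. The 5 epithelial markers of the labelled cell type summed to 473 to 554 and 467 to 803 CPM. No measured marker of these lists was at 0 in any library. GrB replicate 1 was highest for muscle, T cell and macrophage markers, and the part of this mixture in the values below was not tested. In bulk tumour RNA, fewer cells of a type and less RNA per cell cannot be told apart.

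A processed pseudogene arises when the messenger RNA of a gene is reverse transcribed and inserted elsewhere in the genome, a step that in mammals uses the machinery of LINE elements. The copy lacks introns, usually lacks a promoter, and collects mutations with age. Short, abundant messages such as those of ribosomal proteins have left many copies. A young copy can be almost identical to its parent, so that short reads from either can be assigned to both.

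The sequences of the copies show how little separates many of them from coding genes. A sequence from GENCODE M21 (build GRCm38) was found by gene ID for 2140 members, and 2111 of these matched a protein-coding transcript, called here the closest coding gene (1146 different genes), while 29 had no match. The median identity over the aligned stretch was 96.7%, and 96 members were identical over it. In 1857 members (86.7%) the estimated count had a fractional part in all 8 libraries, so these counts are not simple tallies of whole reads. Only 35 members under 10000 counts had whole counts in every library.

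The following stretches were chosen after values were seen. They show a copy identical to its gene over the stretch, a copy with few differences and a copy with more. The others are an intronic copy and a copy with whole counts. All are on GRCm38, 5′ to 3′ on the strand of the copy, and capitals mark the bases at which copy and gene differ. Rps6-ps4 (chr2:75191673-75191822, minus strand) had 0 differences from the start of the Rps6 coding sequence over 150 bases, so a single line stands for both.
Rps6-ps4 and Rps6: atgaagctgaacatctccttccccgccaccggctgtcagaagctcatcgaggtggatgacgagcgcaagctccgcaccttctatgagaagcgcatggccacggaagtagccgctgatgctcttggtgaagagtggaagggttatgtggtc
Gm11878 (chr4:22519628-22519777, plus strand) had 3 differences from Rps24 over 150 bases.
Gm11878: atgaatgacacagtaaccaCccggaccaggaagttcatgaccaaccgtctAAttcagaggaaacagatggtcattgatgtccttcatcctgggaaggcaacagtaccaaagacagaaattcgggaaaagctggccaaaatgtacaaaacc
Rps24: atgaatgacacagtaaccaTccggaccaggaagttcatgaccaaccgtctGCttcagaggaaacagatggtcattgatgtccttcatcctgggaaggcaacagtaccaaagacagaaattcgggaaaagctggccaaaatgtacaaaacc
Gm12834 (chr4:115240885-115241034, minus strand) had 7 differences from Ap2b1 over 150 bases, and an identity of 91.0% over its whole aligned stretch.
Gm12834: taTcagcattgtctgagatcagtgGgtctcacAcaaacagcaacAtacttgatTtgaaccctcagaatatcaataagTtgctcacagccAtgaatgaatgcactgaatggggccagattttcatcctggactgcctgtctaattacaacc
Ap2b1: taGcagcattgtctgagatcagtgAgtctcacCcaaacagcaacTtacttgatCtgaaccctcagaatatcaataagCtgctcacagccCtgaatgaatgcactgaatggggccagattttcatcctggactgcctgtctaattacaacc
Rps12-ps3 (chr19:59322371-59322520, plus strand), which lies in an intron of Pdzd8, had 0 differences from the start of the Rps12 coding sequence.
Rps12-ps3 and Rps12: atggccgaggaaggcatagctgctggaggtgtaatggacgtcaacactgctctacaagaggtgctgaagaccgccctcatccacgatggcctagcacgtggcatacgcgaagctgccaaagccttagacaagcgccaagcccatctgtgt
Hmgb1-rs16 (chr9:104169432-104169519, minus strand) had 2 differences from Hmgb1 over its 88-base stretch, and an identity of 88.7% over its whole aligned stretch.
Hmgb1-rs16: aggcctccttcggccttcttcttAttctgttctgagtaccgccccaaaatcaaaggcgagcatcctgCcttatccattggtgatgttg
Hmgb1: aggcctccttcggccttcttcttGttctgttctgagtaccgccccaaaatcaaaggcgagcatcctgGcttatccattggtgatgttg

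Across the comparison of treated with control tumours, no member was called by edgeR's quasi-likelihood test at an adjusted p under 0.05, and neither was any of the 19718 genes tested (0%), the smallest adjusted p being 0.0619. With GrB replicate 1 left out 153 members and 6.32% of all genes tested were called, and with GrB replicate 4 left out 254 members and 17.1% of all genes. At an unadjusted p under 0.05, 287 of 2106 tested members had a higher treated mean and 392 a lower one, 32.2% together against 35.1% of all genes tested. DESeq2 called 455 members at an adjusted p under 0.05, 190 higher and 265 lower, against 25.7% (12.3% higher, 13.5% lower) of the 18457 genes to which it gave an adjusted p. The remaining counts below are therefore counts at an unadjusted p under 0.05 by edgeR (2106 members passed the low-count filter and 36 did not), and none of these differences passed the adjusted threshold.

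Members outside coding rows had more lower than higher treated means, and overlapping members had shares near those of all genes. Outside, 200 of 1624 tested members were higher and 322 lower, with a median log2 fold change of -0.06. Among overlapping members, 87 of 482 were higher and 70 lower, with a median of 0.07. Over all genes tested, 17.3% were higher and 17.8% lower, with a median of 0.03. The outside members were thus at 12.3% higher and 19.8% lower, the overlapping members at 18% and 14.5%. Among members at p under 0.05, the share on the higher side went under upper quartile scaling from 38.3% to 48.0% outside and from 55.4% to 65.6% among overlapping members. The 4 treated libraries did not overlap the 4 control libraries in 245 members on the higher side (10.3% of all genes tested) and in 363 on the lower side (15.3% of all genes tested), which are 11.6% and 17.2% of the members tested. By GENCODE M21, 10 overlapping members lay on an exon of the host on its strand and 25 on the opposite strand, 2 were not placed, and the rest were intronic. Intronic members on the strand of the host had 45 higher (23.6% of those tested) and 36 lower (18.8%), with a median of 0.13, and those on the opposite strand 35 and 27 of 255, with a median of 0.02.

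The medians lay farther apart when members were divided by the gene that was copied. Copies of ribosomal proteins, the structural proteins of both ribosomal subunits, numbered 407. Of 400 tested, 352 had a positive log2 fold change (10489 of 19718 over all genes tested), with a median of 0.35. At p under 0.05, 152 were higher (38%) and 2 lower (0.5%), against 17.3% and 17.8% of all genes tested. The median was 0.35 outside coding rows and 0.36 among overlapping members. Of the 1706 other tested members, 135 were higher (7.91%) and 390 lower (22.9%), with a median of -0.13. With ribosomal copies set aside, the medians of outside and overlapping members were -0.15 and -0.05, and both classes had more lower members. Outside, 94 were higher (7.01%) and 320 lower (23.9%). Among overlapping members, 41 were higher (11.2%) and 70 lower (19.2%), the latter near the share of all genes. Ribosomal copies made up 120 of the 498 overlapping members and 287 of the 1644 outside.

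**Figure D1:**
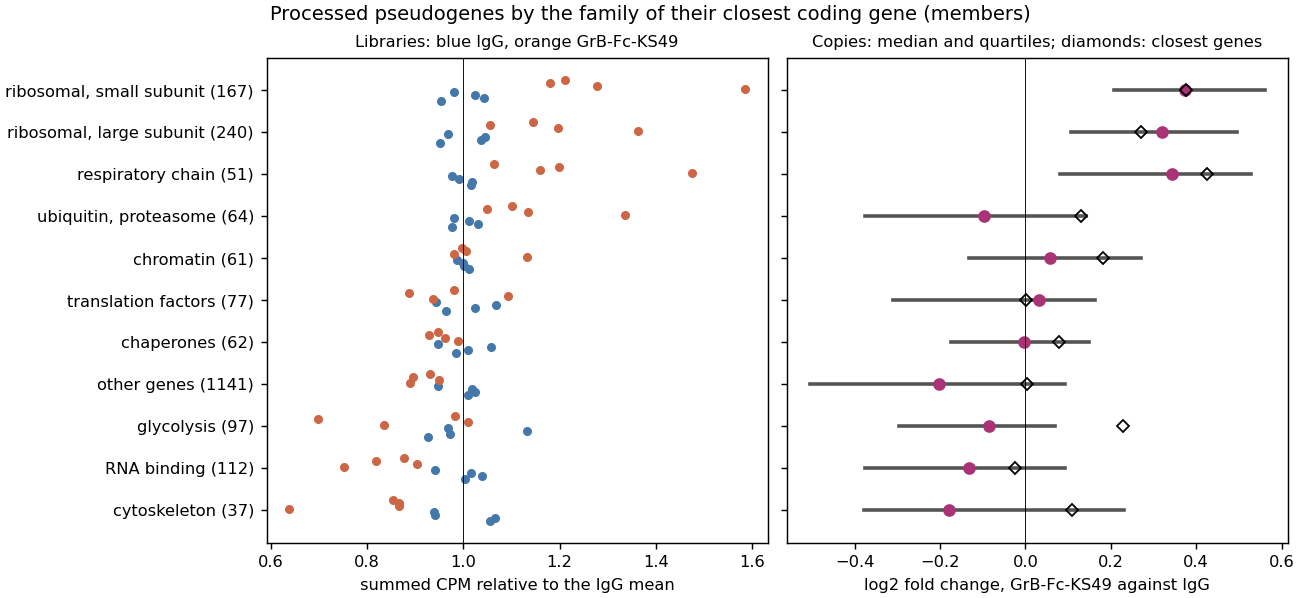
Left, summed CPM of the copies of each gene family in each library, divided by the IgG mean (blue IgG, orange GrB-Fc-KS49). Right, log2 fold changes of the copies (dot, median; bar, quartiles) and the median over the same copies' closest coding genes (diamond). For ribosomal and respiratory chain copies all 4 treated libraries lie right of all 4 control libraries, with GrB replicate 1 farthest.

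Summed over the 407 ribosomal copies, CPM was 26693, 29096, 29087 and 27219 in the IgG tumours and 40172, 34232, 30700 and 32685 in the treated tumours. The groups did not overlap, and GrB replicate 1, the library highest for muscle markers, was highest. The treated mean was 1.23 times the control mean, and 1.16 times without that library. The other 1735 members summed to 32502 to 35396 CPM in control and 30293 to 33619 CPM in treated tumours, which overlapped. All members together took 6.17 ± 0.11% of the library in IgG tumours and 6.67 ± 0.33% in treated tumours (SD, n = 4 each).

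Among single ribosomal copies, the higher members of smallest p outside coding rows, at a mean of at least 0.5 CPM, were copies of small and large subunit genes. Gm11878, the Rps24 copy printed above (Rps24 encodes a small subunit protein), had 5.62, 6.14, 6.98 and 6.14 CPM in IgG tumours and 13.4, 11.2, 8.76 and 10.0 CPM in treated tumours. The groups did not overlap, and the log2 fold change was 0.80 ± 0.15 (SE; edgeR adjusted p = 0.0619). Gm5805 (chr15:81856591-81857046, plus strand, GRCm39), closest to Rps14, had 50.4, 50, 53.0 and 54.2 CPM in controls and 124, 79.9, 75.3 and 84.2 CPM in treated tumours, a log2 fold change of 0.81 ± 0.15 at the same adjusted p. Rpsa-ps1 (0.78 ± 0.17), Gm10073, closest to the stalk protein gene Rplp1 (0.67 ± 0.15), and Rpl18-ps2 (0.59 ± 0.13) were the other 3 of this rank. In each of the 5, GrB replicate 1 was the highest library.

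Of the 5 higher overlapping members of smallest p at a mean of at least 0.5 CPM, 4 were ribosomal copies as well. Rps12-ps3 (chr19:59310803-59311198, plus strand, GRCm39), printed above, had 330, 371, 357 and 351 CPM in IgG tumours and 757, 536, 473 and 492 CPM in treated tumours (log2 fold change 0.68 ± 0.15). Its closest gene Rps12, with 23.5 to 28.6 CPM in controls and 34.2 to 54.0 in treated tumours, was at 0.56 ± 0.15, while Pdzd8, the minus-strand gene whose intron holds it, was at -0.72 ± 0.18. The copy and its host thus had opposite signs. Rps15a-ps6 in Nudcd3 (0.58 ± 0.12), Gm16288 in Selenoi, closest to Rps25 (0.70 ± 0.15), and Gm11478 in Vmp1, closest to Rpl13a (0.48 ± 0.10), had host values of -0.02, -0.38 and -0.07. Gm4708, in Nlrc4 and closest to the elongin subunit gene Elob, was at 0.63 ± 0.14, with Nlrc4 at 0.64 and Elob at 0.43. Each of these 5 copies had an edgeR adjusted p of 0.0619.

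The 2 ribosomal copies on the lower side were named after their values were seen. Gm3963, closest to Rps13, had 0.314, 0.343, 0.221 and 0.310 CPM in control tumours and 0.113, 0.160, 0.178 and 0.112 CPM in treated tumours (log2 fold change -1.07 ± 0.27), with Rps13 itself at 0.67. Gm11222 was closest to Rpl7l1, which carries a ribosomal symbol but is an Rpl7-like gene, and was at -0.62 ± 0.15.

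**Figure D2:**
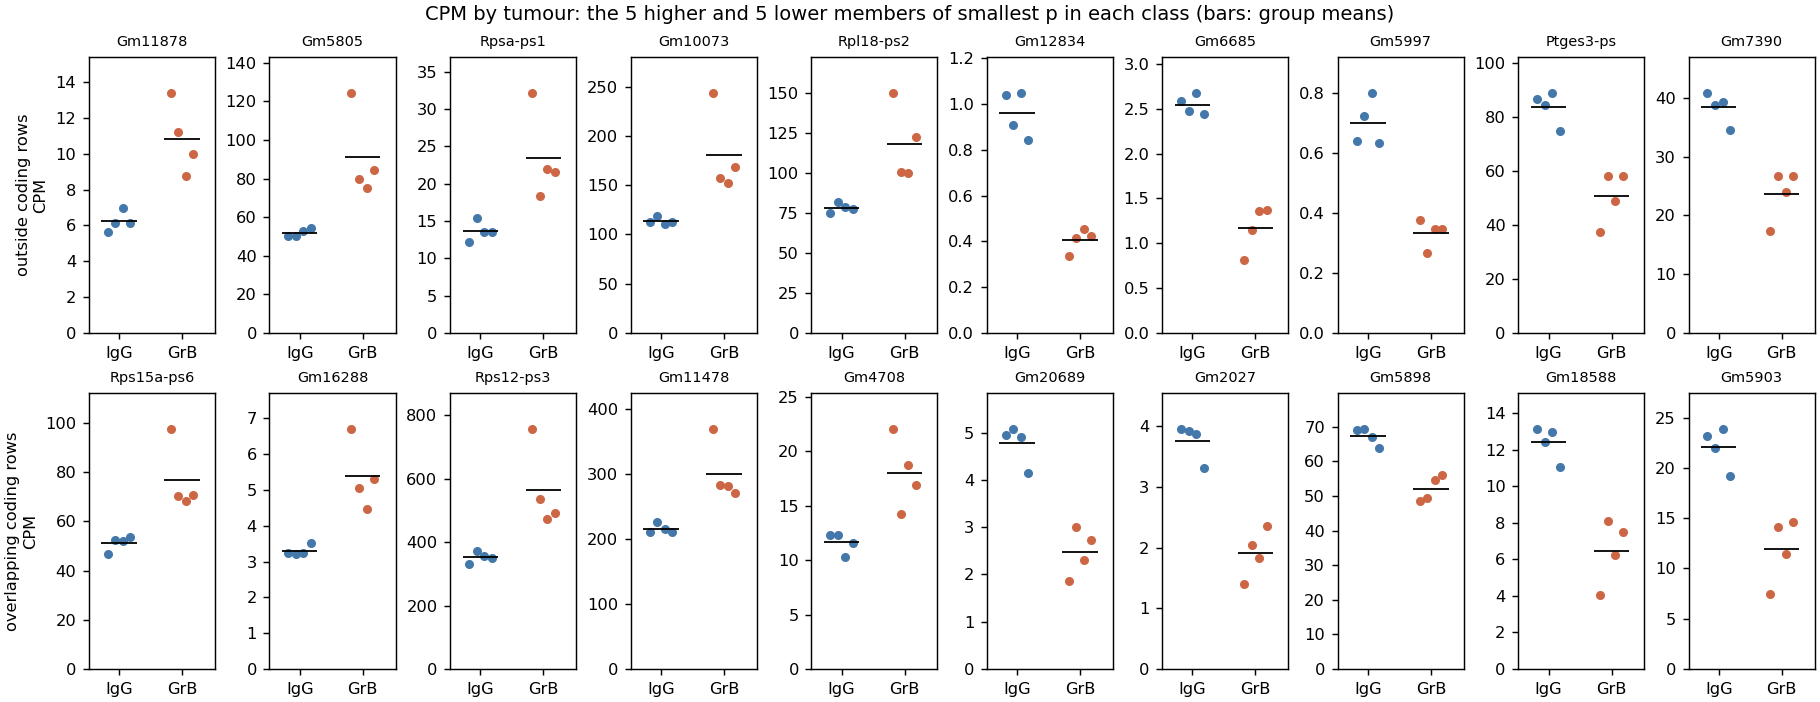
CPM in each tumour for members outside coding rows (top) and overlapping them (bottom). Shown are the 5 higher and 5 lower members of smallest p at a mean of at least 0.5 CPM in each class. Dots are libraries in replicate order, bars are group means, and each y axis starts at 0. In all 20 panels the 4 treated dots lie on a single side of the 4 control dots. The panels were picked by p in this same comparison, which favours such separation. Of all members tested, 11.6% were separated on the higher side and 17.2% on the lower side.

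Copies of respiratory chain and ATP synthase genes, the mitochondrial machinery of oxidative phosphorylation, followed the same direction. Of 50 tested, 22 were higher (44%) and 0 lower, against 17.3% and 17.8% of all genes tested. The median log2 fold change was 0.34, against 0.43 for their closest genes. Gm10221, closest to the ATP synthase gene Atp5l, had 58.1, 64.0, 60.7 and 60.8 CPM in IgG tumours and 123, 86.3, 80.4 and 69.7 CPM in treated tumours (0.56 ± 0.16, edgeR adjusted p = 0.0643). Atp5pb-ps, the copy of another ATP synthase subunit, was at -0.04 ± 0.08. Summed over the family, controls had 507 to 529 CPM and treated tumours 767, 603, 624 and 553 CPM, a ratio of 1.22, or 1.14 without GrB replicate 1.

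Among the other families, RNA-binding and ubiquitin copies and those of genes in no list had a lower-side share above the 17.8% of all genes. Copies of RNA-binding and splicing protein genes had 7 higher and 30 lower (27.5%) of 109 (median -0.13), and their summed CPM of 2813 to 3104 in controls did not overlap the 2249 to 2698 of treated tumours. Ybx1-ps2, a copy of a cold-shock domain protein gene, had 62.0 to 73.5 CPM in controls and 36.8, 55.6, 51.2 and 51.6 in treated tumours (log2 fold change -0.46 ± 0.13). Copies of ubiquitin and proteasome genes had 6 higher and 14 lower (22.2%) of 63, although the 4 treated libraries (1390 to 1771 CPM summed) lay above the 4 controls (1293 to 1366 CPM). Chaperone copies had 3 higher and 8 lower of 61, translation factor copies 5 and 11 of 75, and chromatin protein copies 8 and 3 of 59, all at shares under those of all genes (17.3% higher, 17.8% lower). Copies of genes in none of the lists had 75 higher and 309 lower (27.5%) of 1125, with a median of -0.20.

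Cytoskeletal copies, described after their values were seen, lay on both sides. Of 37 tested, 6 were higher and 6 lower (16.2% each), near the 17.3% and 17.8% of all genes tested. Among the higher were 4 copies of the myosin light chain gene Myl6, of which Gm10080 had 128, 136, 127 and 133 CPM in controls and 183, 146, 176 and 160 CPM in treated tumours (0.34 ± 0.08). On the lower side, Gm12715, closest to the actin gene Actg1, was at -0.56 ± 0.19, and Gm7809, closest to the tropomyosin gene Tpm4, at -0.68 ± 0.20. Summed over the family, controls had 2517 to 2860 CPM and treated tumours 1712, 2322, 2325 and 2291 CPM, without overlap. Gm12715 alone made up 1306 to 1542 CPM of these sums in controls and 596, 1152, 1061 and 1050 CPM in treated tumours. The separation of the sums is therefore not shown for the rest of the family, which was not summed apart.

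Among lower members outside coding rows, at a mean of at least 0.5 CPM, the smallest p belonged to copies of genes of diverse function. Gm12834, the copy of the clathrin adaptor gene Ap2b1 printed above, had 1.04, 0.910, 1.05 and 0.843 CPM in IgG tumours and 0.338, 0.413, 0.452 and 0.423 CPM in treated tumours. The log2 fold change was -1.24 ± 0.19, against -0.37 ± 0.09 for Ap2b1. Gm6685, closest to Cyb5d1, was at -1.12 ± 0.19 (Cyb5d1 -0.93), Gm5997, closest to the lipid phosphatase gene Mtmr2, at -1.06 ± 0.20 (Mtmr2 -0.38), and Gm7390, closest to the E2F partner gene Tfdp1, at -0.70 ± 0.14. Ptges3-ps, identical over its aligned stretch to the co-chaperone gene Ptges3, had 74.8 to 88.8 CPM in controls and 37.4, 58.1, 48.9 and 58.1 CPM in treated tumours (-0.72 ± 0.14), while Ptges3 was at -0.02 ± 0.07.

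The overlapping members with lower treated means included a pair in the same intron-bearing gene. Gm20689, closest to the small GTPase gene Rab8b, and Gm18588, closest to the sterol-binding protein gene Osbpl9, both lie in Ift80 and were at -0.95 ± 0.17 and -0.94 ± 0.20, with Ift80 at -0.33. Gm2027, in Pnpla8 and closest to Naf1, was at -0.98 ± 0.18, and Gm5898, in Otud7a and closest to Thrap3, at -0.37 ± 0.07. Gm5903, closest to Rfwd3, was at -0.89 ± 0.20, while Fgfr2, whose row it overlaps, was at 1.91 ± 0.73.

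Across members, the log2 fold change of a copy went with that of its closest coding gene and not with that of the gene it overlapped. Spearman's rho against the closest gene was 0.67 over 2057 members, 0.68 outside coding rows and 0.63 among overlapping members. Against the overlapped gene it was 0.004 over 428 members. Intronic members on the strand of the host were at -0.02, and 80 (46.8%) of them shared its sign. Those on the opposite strand were at 0.04 (225 members). Members on a host exon were at 0.29 on the opposite strand, where 16 of 22 (72.7%) shared the sign of the host. On the strand of the host they were at -0.05, where 3 of 9 (33.3%) did. Below 90% identity rho with the closest gene was 0.55 (170 members), and at 100% it was 0.77 (95 members). In the identity bins between, in rising order, it was 0.64, 0.69, 0.68 and 0.68. The median CPM of members was 0.27 below 90% and 18.2 at 100%, and the part of abundance in rho was not tested. These are descriptions over points that are not independent, since copies and genes share libraries, many copies share a gene, and near-identical copies can share reads.

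**Figure D3:**
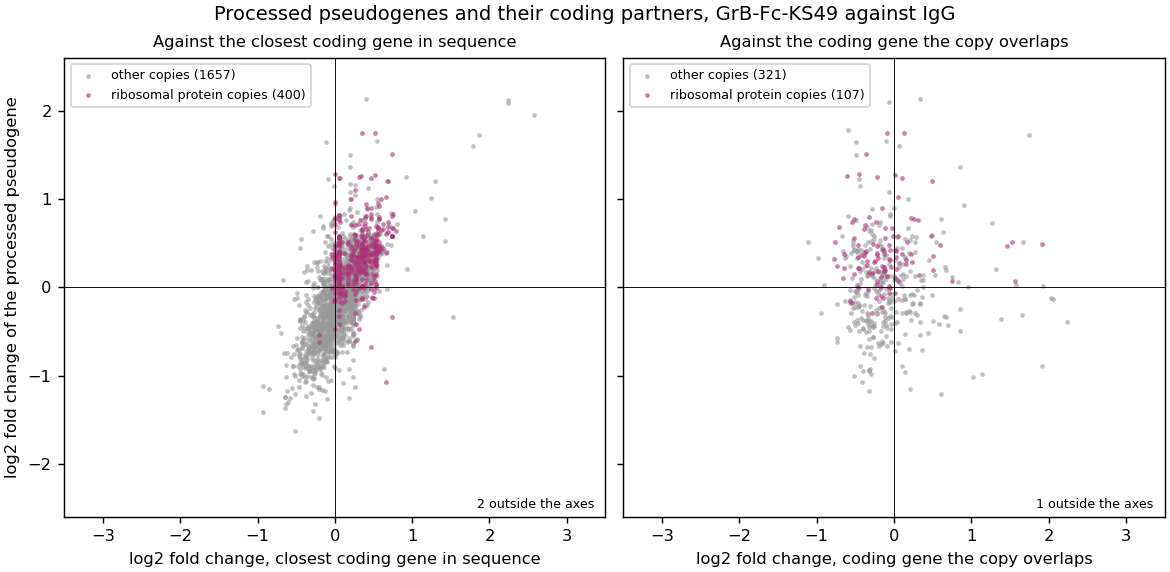
Log2 fold change of each processed pseudogene (y) against that of its closest coding gene (x, left) and of the coding gene it overlaps (x, right), with ribosomal protein copies coloured. On the left the points follow a rising band (rho 0.67), and on the right no slope is seen (rho 0.004).

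Within that relation the copies sat lower than their genes. The median difference between copy and closest gene was -0.16 over all members, -0.21 over non-ribosomal copies and 0.02 over ribosomal copies. Length went with the fold change as well, with a rho of -0.39 over 2104 members. Among non-ribosomal copies the median log2 fold change was 0.07 up to 513 bases, -0.13 from there to 948 bases and -0.27 above, and among ribosomal copies 0.40, 0.27 and 0.05, the last over 9 members. The part of length in the family differences was not tested.

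Copies of a single gene varied among themselves and from their gene. Gapdh, the glycolytic enzyme gene, had the most copies, 65, of which 63 were tested. Of these, 0 were higher and 5 lower (7.94%), under the 17.3% and 17.8% of all genes tested. The median log2 fold change was -0.17, with a range from -1.01 (Gm10481) to 0.55 (Gm7497). Both ends of this range lay at low counts, with means of 0.40 and 0.31 CPM, and the median over the copies was 0.33 CPM. Gapdh itself was at 0.23 ± 0.16. The 37 copies of Rps2 had a median of 0.27 beside 0.00 for Rps2, and 35 tested copies of Rpl21 a median of 0.36 beside 0.05 for Rpl21. The median CPM was 0.44 over the Rps2 copies and 0.31 over the Rpl21 copies. Rps2 and Rpl21 themselves had means of 9.09 and 19.7 CPM. Glycolytic copies as a whole had 1 higher, the Ldha copy Gm13549 (0.55 ± 0.21, named after its value was seen), and 6 lower of 95, which at 1.05% and 6.32% is under the share of all genes in both directions.

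Of 130 members with a mean of at least 100 CPM, 76 had a higher mean CPM than their closest coding gene and 54 a lower one, such as Pgam1-ps2 (174 CPM, against 1241 for Pgam1). Counts of a copy as a share of copy plus closest gene were above 50% in IgG tumours for all 10 copies examined, which were chosen as the 5 of highest mean CPM in each position class. Gm15459, the copy of the heat shock cognate gene Hspa8, had 2759.5, 2867, 3094 and 2688 CPM in IgG tumours and 2673, 2669, 2542 and 2625 CPM in treated tumours, and 1412 CPM per kilobase against 222 for Hspa8. Rpl3-ps1 held 95.3 ± 0.28% of the counts it shared with Rpl3 in controls and 94.2 ± 0.85% in treated tumours, and Rps6-ps4 90.6 ± 0.18% and 89.3 ± 1.2% of those with Rps6 (SD, n = 4).

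The share held by the copy had a lower treated mean in most of these pairs. Tpt1-ps3, the copy of the translationally controlled tumour protein gene Tpt1, held 59.2, 58.9, 58.1 and 57.2% in IgG tumours and 44.6, 56.3, 54.4 and 52.8% in treated tumours. Gm13394 held 65.4, 66.2, 65.9 and 64.1% of its counts with Gapdh in controls and 45.0, 61.4, 57.9 and 58.8% in treated tumours. The share was lower in the treated mean for 9 of the 10 pairs, and in 5 of them the groups did not overlap (exact permutation test, two-sided, p = 0.0286, the smallest that 4 against 4 allows). After Benjamini-Hochberg adjustment over the 10 pairs, 0 were under 0.05, and these 5 stood at an exact permutation adjusted p of 0.0571. The 10 pairs share libraries and are not independent, and the share was examined in no other pairs. Over all members the median difference in log2 fold change between copy and closest gene was already -0.16. For Gm12918 and Rpl13 the shares were 85.9 ± 0.23% and 85.8 ± 0.62% (SD, n = 4).

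**Figure D4:**
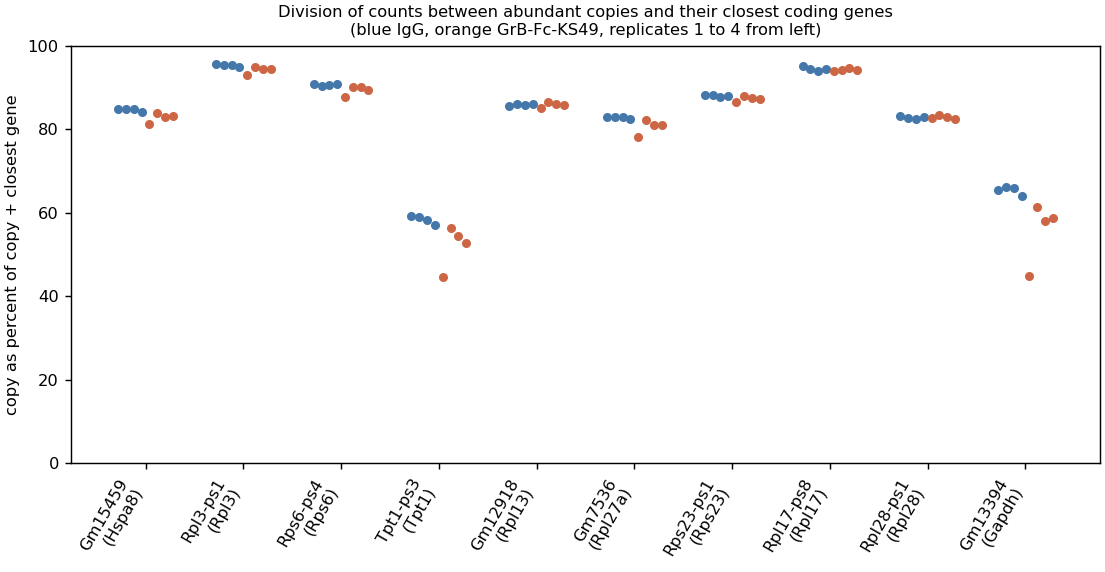
Counts of 10 abundant copies (the 5 of highest mean CPM in each position class) as a percent of copy plus closest coding gene, by library (blue IgG, orange GrB-Fc-KS49, replicates 1 to 4 from left; y axis from 0 to 100%). The treated shares of Tpt1-ps3 and Gm13394 lie below all control shares, with GrB replicate 1 lowest at 44.6% and 45.0%.

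The members with whole counts in every library, singled out after values were seen, carry no fractional part in their counts. Of 9 such members in introns on the strand of the host, 8 were tested and 5 had higher treated means at p under 0.05, with a median log2 fold change of 1.38, where 17.3% of all genes were higher; the set was singled out after its values were seen and has no test. Of 5 tested whole-count members in introns on the opposite strand, 0 were higher and 1, Gm19144, was lower (20%, against 17.8% of all genes). Hmgb1-rs16, the copy of the chromatin protein gene Hmgb1 printed above, had 0.0605, 0.145, 0.0966 and 0.248 CPM in IgG tumours and 0.626, 0.240, 0.440 and 0.261 CPM in treated tumours (log2 fold change 1.5 ± 0.48). The groups overlapped, and Dnajc13, whose intron holds it, was at -0.49 ± 0.11. Gm17981 in Arhgap35 was at 1.79 ± 0.39, Gm47773 in Pcgf5 at 1.75 ± 0.47, Gm13689 in Nckap1 at 1.65 ± 0.49 and Gm13785 in Phf21a at 1.27 ± 0.47. All 5 lay under 1 CPM in every library. Of 19 tested whole-count members outside coding rows, 0 were higher and 2 lower (10.5%, under the 17.8% of all genes). These 2 were Gm20008 (-0.99 ± 0.23) and Gm7045 (-0.73 ± 0.27). Gm12250, for which no closest coding gene was found, had the most counts of the whole-count members. It ranged from 1.89 to 12.5 CPM in IgG tumours and had 48.0, 25.6, 2.27 and 10.3 CPM in treated tumours (1.47 ± 0.85).

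Members at the extremes of the fold changes were also named after their values were seen. Mylf-ps, closest to the muscle myosin light chain gene Myl1, had 1.98, 0.356, 0.497 and 1 CPM in controls and 18, 2.92, 2.81 and 0.336 CPM in treated tumours (2.64 ± 1.08), in the order of the muscle marker sums in the treated libraries apart from GrB replicates 2 and 3; the part of muscle RNA in it was not tested. Gm6166, closest to the fatty acid binding protein gene Fabp5, was highest in GrB replicate 2 (57.9 CPM), the library in which 4 measured epidermal markers summed to 1563 CPM. Gm29696, which overlaps an exon of Ptrhd1, had 1.27, 0.989, 1.09 and 0.484 CPM in controls and 0, 0, 0.0476 and 0.112 CPM in treated tumours, without overlap. Gm14612, closest to Spred2, had 0.262 to 0.382 CPM in controls and 0.0376 to 0.137 in treated tumours (-1.63 ± 0.37), and Gm12098, in Acyp2 and closest to Rbm8a, had 0.0395 to 0.062 and 0.167 to 0.463 (2.13 ± 0.45), both without overlap.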

How the data were processed

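Per the labels' protocols, libraries were made with a stranded kit after mRNA enrichment. Per the submitters' processing notes, bcl2fastq 2.19.1.403 and STAR were used with build GRCm39. How reads were counted, with which annotation and whether by strand, the sources used here do not say, so reads of overlapping genes cannot be told apart. The authors deposited estimated counts per gene, not normalized, and a CPM table scaled by the authors to library totals after a small constant was added. Members and lists were chosen with earlier results of these data known.

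Estimated counts were rounded. Genes were filtered with filterByExpr (minimum count 10, minimum total 15), scaled by TMM and tested with edgeR 4.0.16 (robust quasi-likelihood F test, R 4.3.3), with Benjamini-Hochberg adjustment over all genes and a threshold of 0.05. The standard error is the absolute log2 fold change divided by the square root of F. Printed CPM are TMM-scaled. Alternatives used DESeq2 1.42.0, limma 3.58.1 (voom, and log2 of the deposited CPM plus 1 or 0.25), other scalings and filters, left-out libraries, and other definitions of member and overlap. The test was checked on simulated data.

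Closest coding genes were found with BLAST+ 2.17.0 (megablast, E-value limit 1e-20, same strand, overlapped gene excluded) against GENCODE M21 transcripts, matched to the table by gene ID. Introns and exons are those of that annotation. Per class, named members are the 5 of highest mean CPM, the 5 higher and 5 lower of smallest p (mean CPM 0.5 or more), and the 4 of highest CPM with a parent symbol per family; others are named as chosen after values were seen.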

Additional observations from a re-analysis of the deposited data

Results flagged for a closer look

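A library stood far from the other 3 of its group in 17 of 218 groups examined (7.8%), where chance gives about 1 in 20. In 10 of the 17 the library was GrB replicate 1. It was high for Cbx3-ps7 (2.28 CPM against 0.584 to 0.866 in the other treated tumours), Gm12439 (0.25 against 0.131 to 0.137), Ndufa12-ps (86.7 against 59.7 to 61.7), Gm13785 (0.639 against 0.336 to 0.373), Gm47773 (0.864 against 0.357 to 0.435), Rps15a-ps6 (97.5 against 68.4 to 70.9) and Gm11478 (368 against 270 to 282). It was low for Ube2n-ps1 (36.8 against 54.9 to 58.0), Gm20008 (1.30 against 2.6 to 2.79) and the summed CPM of cytoskeletal copies (1712 against 2290 to 2330). GrB replicate 2 was low for Gm2343 (0.0799 against 0.163 to 0.174).

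Among IgG tumours, replicate 4 was low for Atp5pb-ps (94.5 CPM against 102 to 103) and Gm2027 (3.31 against 3.88 to 3.95) and high for Gm16288 (3.52 against 3.20 to 3.24). Replicate 2 was high for Rpsa-ps10 (975 against 843 to 865) and Psma5-ps (121.4 against 110 to 112), and replicate 1 for Gm11965 (0.314 against 0.207 to 0.224).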

How the results depend on the processing

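No member was called by edgeR under any other scaling, filter or member definition run, with both U libraries left out or with the suffix as covariate, or by limma. The count of called members ran from 0 to 254 with a library left out (153 without GrB replicate 1, 254 without GrB replicate 4, 0 without any other), and DESeq2 called 455; the cause was not tested. Outside coding rows 48.5% of members at p under 0.05 were on the higher side with at least 50 counts in 4 samples. The median outside coding rows was -0.0053 with upper quartile scaling, -0.0237 with at least 50 counts in 4 samples, -0.0176 and -0.0343 with limma at pseudocounts of 1 and 0.25, and -0.0691 to -0.0357 with a library left out. The median of overlapping members was 0.1344 with upper quartile scaling, 0.0123 for sums of at least 400 and 0.1441 for overlap on the same strand only, a definition with fewer members that left 84 at p under 0.05. With both U libraries left out, 345 outside members and 223 lower non-ribosomal members were at p under 0.05; the latter ran from 241 (without IgG replicate 1) to 394 with a library left out. Ribosomal copies on the higher side ran from 123 to 163 and rho with the closest gene from 0.6214 to 0.6715 with a library left out; these family and rho results were added after seeing the data.

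Of 102 named members, 13 changed the sign of the log2 fold change at least once. With upper quartile scaling this gave 0.0167 for Atp5pb-ps, 0.0512 for Psma5-ps, 0.013 for Cbx3-ps6, 0.0128 for Rpl3-ps1, 0.012 for Rbm3-ps and 0.0463 for Gm18855. With at least 50 counts in 4 samples it gave 0.0032 for Atp5pb-ps, 0.0395 for Psma5-ps, 0.0006 for Cbx3-ps6, 0.0016 for Rpl3-ps1 and 0.001 for Rbm3-ps. With library totals only it gave 0.0178 for Psma5-ps and 0.0082 for Gm18855. Psma5-ps was at 0.0131 with limma at either pseudocount, and Ldha-ps2 at -0.0079 with no filter and -0.0027 with limma-voom. With a library left out, ranges reached both signs for Psma5-ps (-0.0425 to 0.0238), Cbx3-ps6 (-0.1156 to 0.0407), Cbx3-ps7 (-0.2137 to 0.6501), Gm13204 (-0.0153 to 0.3335), AA414768 (-0.2091 to 0.0129), Gm13033 (-0.1055 to 0.4123), Ldha-ps2 (-0.0535 to 0.0856), Gm2343 (-0.1981 to 0.1087), Rbm3-ps (-0.1852 to 0.0380), Gm18855 (-0.1553 to 0.2677) and Gm21011 (-0.5239 to 0.1715).

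No paired analysis was possible because the labels give no replicate numbers; those used here follow accession order. For members under 1 CPM, a few counts per library set the fold change, and 36 members did not pass the low-count filter.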
